A study of Mus musculus with 8 samples.

Results

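The 8 genes described here encode the peptide hormones of the islet of Langerhans. Ins1, Ins2, Iapp, Gcg, Sst, Ppy, Pyy and Ghrl were taken from the count table by their Ensembl identifiers, and all 8 were found among its 53012 genes. To understand how lowering the receptor for insulin-like growth factor 1 in β-cells bears on hormone transcripts, islet RNA of 4 βIgf1r and 4 βIgf1rKD mice was sequenced, with a separate library for each animal. All 8 mice were 17 months old and carried 2 Igf1r alleles with a floxed exon 3, written Igf1r flox/flox. The βIgf1rKD mice were also Ins1-CreERT2+/− and had received 5 daily intraperitoneal injections of tamoxifen at 0.075 mg per g of body weight, whereas the βIgf1r mice were Ins1-CreERT2−/− and had received corn oil. The islets were taken 7 days later. The methods of the study place the inducible Cre under a rat insulin promoter, while the genotype names Ins1, and Cre, tamoxifen and recombination differed together between the groups, so that their contributions cannot be told apart. Males and females were present in both groups.

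The endocrine cell types of the islet are told apart by the hormones they make. β-cells make insulin, which lowers blood glucose, and amylin, the product of Iapp, which is stored in the same granules. α-cells make glucagon from Gcg, which raises blood glucose, δ-cells make somatostatin from Sst, which restrains the release of the other hormones, and PP cells make pancreatic polypeptide from Ppy. Pyy encodes peptide YY, a relative of pancreatic polypeptide that several islet cell types make, and Ghrl encodes ghrelin, a hunger hormone that is made mainly in the stomach and by a rare ε-cell in islets. Mice have a pair of insulin genes, Ins1 and Ins2, of which Ins2 corresponds to the insulin gene of other mammals and Ins1 arose from it as a retrotransposed copy.

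The insulin genes are shown first because nearly identical sequences had to be separated to count them. Ins1 occupies chr19:52264297-52265476 (plus strand) with 2 exons, and Ins2 occupies chr7:142678656-142743381 (minus strand) with 9 annotated transcripts (GENCODE M21, GRCm38). Their coding sequences aligned over 330 columns, of which 300 were identical (90.9%), 24 held different bases and 6 were gaps, and the longest identical stretch was 54 bases. The start of each coding sequence is given 5′ to 3′ in the sense of the gene, and capitals mark the bases that differ between the genes or face a gap in the alignment. The windows hold the first 294 bases of the Ins1 coding sequence, which runs over chr19:52264624-52264947, and the first 300 bases of that of Ins2, which runs over chr7:142678716-142679533 on the minus strand.
Ins1: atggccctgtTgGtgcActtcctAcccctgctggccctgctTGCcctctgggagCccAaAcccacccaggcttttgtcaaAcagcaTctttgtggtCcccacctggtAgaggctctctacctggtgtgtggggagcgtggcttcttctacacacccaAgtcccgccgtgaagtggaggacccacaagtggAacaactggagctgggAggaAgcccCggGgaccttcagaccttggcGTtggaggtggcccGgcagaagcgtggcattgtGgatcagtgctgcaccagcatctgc
Ins2: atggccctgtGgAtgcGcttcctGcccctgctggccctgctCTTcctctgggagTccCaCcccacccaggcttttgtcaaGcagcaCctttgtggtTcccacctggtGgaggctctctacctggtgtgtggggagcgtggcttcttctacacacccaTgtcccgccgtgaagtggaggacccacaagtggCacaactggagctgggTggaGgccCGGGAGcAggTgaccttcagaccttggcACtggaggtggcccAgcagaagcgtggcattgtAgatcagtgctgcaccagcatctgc

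Over the whole transcripts the genes differed more. Of the stretches of 31 bases in annotated Ins1 transcripts, 4.55% were also found in Ins2, and 3.27% of those of Ins2 were found in Ins1. These shared stretches numbered 47. Ins1 and Ins2 were the only hormone genes with fractional estimated counts, in 8 of 8 mice, so that reads that matched both had been divided by estimate. Iapp, Gcg, Sst, Ppy and Pyy shared no stretch of that length with another gene, and Ghrl shared 3 with Tmem8b. Iapp overlaps Slco1a5, and Ghrl overlaps Gm26982 and Gm44033. How the libraries' strand was used in counting is not given in the sources used here, so reads of overlapping genes may not have been separated.

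The promoters of the β-cell genes Ins1 and Iapp are shown next, and no link of these sequences to the group values was tested. They are the 250 bases before the annotated start in RefSeq (GRCm38.p6), at chr19:52264047-52264296 and chr6:142298175-142298424, both on the plus strand. The coding sequence of Ins1 begins only at 52264624, and sites between its window and that base were not searched. Capitals mark TAAT, the core of sites read by homeodomain factors such as Pdx1, and CATCTG, an E box of the kind read by Neurod1, on either strand.
Ins1 promoter: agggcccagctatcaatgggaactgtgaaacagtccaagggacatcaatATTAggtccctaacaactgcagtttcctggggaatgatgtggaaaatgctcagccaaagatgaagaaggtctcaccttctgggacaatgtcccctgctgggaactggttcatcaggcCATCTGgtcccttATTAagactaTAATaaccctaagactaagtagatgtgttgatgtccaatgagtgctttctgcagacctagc
Iapp promoter: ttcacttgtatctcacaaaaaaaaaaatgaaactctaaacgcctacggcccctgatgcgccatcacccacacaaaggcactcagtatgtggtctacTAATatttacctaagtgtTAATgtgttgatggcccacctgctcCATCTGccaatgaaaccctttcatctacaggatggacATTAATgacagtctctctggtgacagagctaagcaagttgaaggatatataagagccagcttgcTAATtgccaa

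Promoters of this kind were listed for 7 of the 8 genes, all but Ins2. TAAT was found 3 times for Ins1, 5 times for Iapp, 2 times for Gcg and 1 time for Sst, and it is present in 54.9% of all 32851 promoters of the same length. CATCTG was found 1 time for Ins1, 1 time for Iapp and 2 times for Gcg, against 14.4% of all promoters with at least 1 match. The cAMP response element TGACGTCA, known from the Sst promoter, was found 1 time there and in no other hormone promoter, and 1.55% of all promoters hold it. No match of a motif overlaps one of another motif, while 2 of the TAAT matches of Iapp overlap each other. None of the 3 was found before any listed start of Ppy, Pyy or Ghrl, which says only that these letters are not in those windows.

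Libraries held between 21634080 and 42391328 estimated counts. Igf1r, the targeted gene, was at 46.9, 48.0, 60.9 and 58.7 CPM (counts scaled to a common library size by TMM factors) in the βIgf1r mice M148, M151, M152 and M153. It was at 46.9, 50.2, 57.9 and 47.8 CPM in the βIgf1rKD mice M145, M146, M149 and M150, so the groups overlapped, and the log2 fold change was -0.08 (standard error 0.11). A count over the whole gene includes exons outside the floxed one and does not by itself measure recombination. Markers of exocrine acinar cells, 12 digestive enzyme genes, took 1.95% to 13.8% of the counts in βIgf1r and 4.04% to 16.3% in βIgf1rKD libraries, and all 12 had a higher mean in βIgf1rKD, none of them with an unadjusted p under 0.05. Of the other marker lists, 5 of 6 duct, 5 of 6 leukocyte and 4 of 7 stromal genes were higher without any such p. In contrast, 10 of 10 endothelial genes were lower, 6 of them with an unadjusted p under 0.05 (edgeR) and 0 with an adjusted one. Over all 15474 genes tested, 8086 were higher and 7388 lower, and 4.12% had an unadjusted p under 0.05. Xist was at 401.9 CPM in M151 of βIgf1r and at 410.9, 270.1 and 337.7 CPM in M145, M146 and M150 of βIgf1rKD. It was at 1.22 to 6.71 CPM in the other mice, and sex is not marked by mouse. Xist was thus above 100 CPM in 1 βIgf1r and 3 βIgf1rKD mice. Any sex difference that goes with Xist was therefore unevenly split between the groups. The part of acinar RNA and of Xist in the values that follow was not tested beyond the fits that carry them as covariates. In whole islets, fewer cells of a type and less RNA per cell cannot be told apart.

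Hormone transcripts made up a large portion of every library. The 8 genes together took 24.3%, 23.0%, 17.7% and 21.8% of the counts in M148, M151, M152 and M153, and 12.1%, 23.8%, 12.8% and 16.9% in M145, M146, M149 and M150. Their means were 21.7% ± 2.87 for βIgf1r and 16.4% ± 5.40 for βIgf1rKD islets (SD, n = 4 each). The groups overlapped, since M146 of the βIgf1rKD group had the second highest share of all 8 mice. M152, with the lowest hormone share of the βIgf1r mice, had the highest acinar share of its group, and M145 and M149, with the lowest of the βIgf1rKD mice, had the highest acinar shares of theirs. With acinar counts taken out of the total, the means were 23.2% ± 1.86 and 18.3% ± 4.85 (SD, n = 4 each).

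**Figure D1:**
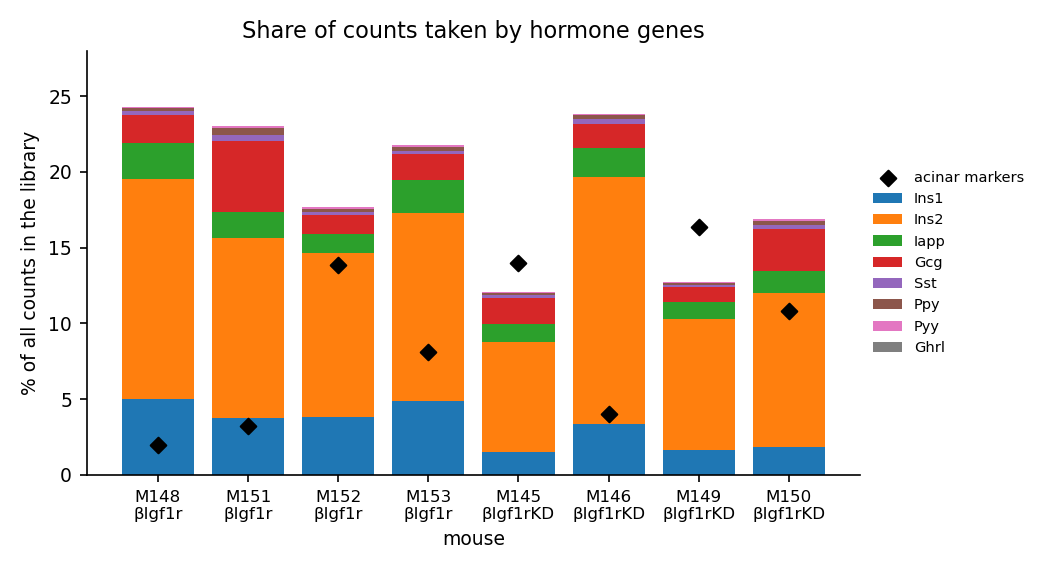
Stacked bars give the percent of all estimated counts taken by each hormone gene in each mouse, and diamonds give the percent taken by the 12 acinar markers. The hormone share runs from 12.1% in M145 to 24.3% in M148, and Ins2 is the widest band in every mouse.

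Ins2 was the most abundant hormone transcript of the islets. On the scale of CPM per kilobase of transcript, taken from library totals without TMM factors, the mean level over the 8 mice was 240440 for Ins2, 30501 for Ins1, 19691 for Iapp, 19057 for Gcg, 4760.2 for Ppy, 3408 for Sst, 1558 for Pyy and 5.77 for Ghrl. On this per-length scale the ranges of Ins2 and Ins1, of Gcg and Ppy and of Pyy and Ghrl did not overlap over the mice. Iapp exceeded Gcg in 5 of 8 mice on this scale and in 7 of 8 per coding length, and the ranges of these neighbours overlapped. Ins1 was above Iapp, Ppy above Sst and Sst above Pyy in 8 of 8 mice, although the ranges of each pair overlapped. Per coding length Ppy was above Sst in 4 of 8, so the order of these 2 depends on the length used.

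The length given to a transcript moved these levels. The annotated Ins1 transcript is 1062 bases long with 324 coding bases, and the Ins2 transcript used is 478 bases long with 330 coding bases. Ins1 made up 11.6% ± 1.32 of the summed per-length hormone level in βIgf1r and 6.92% ± 0.540 in βIgf1rKD islets (SD, n = 4 each), and 21.1% ± 2.31 and 13.2% ± 1.07 (SD, n = 4 each) per coding length. Ins2 made up 72.96% ± 3.59 and 77.9% ± 3.39 (SD, n = 4 each) on the first scale and 58.6% ± 3.18 and 65.7% ± 3.60 (SD, n = 4 each) on the second. The shares add up to the same total in every mouse, so a lower share of Ins1 raises that of the other genes. For Ins1 the shares did not overlap on either scale, and for Ins2 they overlapped on the first, with values of up to 76.2% in βIgf1r and from 74.9% in βIgf1rKD mice.

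Comparing the groups gene by gene, Ins1 was the only hormone gene whose values did not overlap between the groups. Ins1 was at 40697, 31089, 42210 and 50373 CPM in M148, M151, M152 and M153 and at 19119, 28541, 19536 and 19600 CPM in M145, M146, M149 and M150. The highest βIgf1rKD mouse, M146, was still below the lowest βIgf1r mouse, M151. The mean was 41092 ± 7908 CPM in βIgf1r and 21699 ± 4567 CPM in βIgf1rKD islets (SD, n = 4 each). The log2 fold change was -0.92 (standard error 0.33). The unadjusted p was 0.0204 and the adjusted p 0.987 in edgeR's quasi-likelihood test, so Ins1 was not called after adjustment over all genes. Whether the Ins1-CreERT2 allele, which only βIgf1rKD mice carried and whose name points to Ins1, itself alters the Ins1 transcript was not tested, and every Ins1 value given here is subject to that limit. An exact two-sided permutation test of its log2 CPM gave p = 0.0286, the smallest that 4 mice against 4 allow.

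The quasi-likelihood test of edgeR called 0% of the 15474 genes at an adjusted p under 0.05, with a smallest adjusted p of 0.948. It gave 4.12% of them (637 genes) an unadjusted p under 0.05. The groups failed to overlap in log2 CPM for 2.22% of all genes, and for 1 of the 8 hormone genes. The call on Ins1 depended on the tool. DESeq2 gave the same log2 fold change of -0.92 with a standard error of 0.17 and an adjusted p of 0.000281, and called 8 genes in all and 701 at an unadjusted p under 0.05. By limma-voom the unadjusted p was 0.000502 and the adjusted p 0.998, with 1 gene called. With the acinar score as a covariate the log2 fold change of Ins1 was -0.89 (edgeR unadjusted p = 0.00197, adjusted p = 0.9998), and with Xist it was -0.84 (unadjusted p = 0.0491, adjusted p = 0.671).

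Ins2 did not follow Ins1. Ins2 was at 117790, 97054, 120438 and 127159 CPM in M148, M151, M152 and M153 and at 90221, 138537, 103902 and 106191 CPM in M145, M146, M149 and M150. The βIgf1rKD mice spanned the βIgf1r mice on both sides, and the log2 fold change was -0.08 (standard error 0.41, edgeR adjusted p = 0.998). That standard error depended on the fit, at 0.14 with DESeq2, 0.15 with limma-voom and 0.53 with edgeR without a filter. For Iapp the values were 19450, 14495, 14063 and 21763 CPM in βIgf1r and 14498, 16260, 13590 and 15213 CPM in βIgf1rKD mice. Iapp of the βIgf1rKD mice lay within or just below the lower part of the βIgf1r range, and the log2 fold change was -0.23 (standard error 0.28, edgeR adjusted p = 0.987).

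Gcg varied more between mice of a group than between the groups. Gcg was at 14595, 38220, 13608 and 17900 CPM in M148, M151, M152 and M153 and at 21989, 13857, 11938 and 28956 CPM in M145, M146, M149 and M150. M151 had the highest value of all and M150 the next, and the log2 fold change was -0.14 (standard error 0.45). Sst ranged from 2115.7 to 3272.5 CPM in βIgf1r and from 1716.7 to 2617.9 CPM in βIgf1rKD mice, and its log2 fold change was -0.25 (standard error 0.22). Ppy ranged from 1655.6 to 3579.6 and from 1424.4 to 2972.8 CPM, respectively, and its log2 fold change was -0.29 (standard error 0.30). The groups overlapped for each of these hormones of α, δ and PP cells, and the edgeR adjusted p was 0.992 for Gcg and 0.987 for Sst and Ppy.

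The least abundant hormone genes did not separate the groups either. Pyy ranged from 602.3 to 1115.5 CPM in βIgf1r and from 759.7 to 863 CPM in βIgf1rKD mice, a narrower range, and its log2 fold change was -0.09 (standard error 0.19, edgeR adjusted p = 0.989). Ghrl had 101, 166, 58 and 57 counts in M148, M151, M152 and M153 and 64, 55, 8 and 177 counts in M145, M146, M149 and M150. The 8 counts of M149 leave a large counting error in any ratio with Ghrl, and the log2 fold change of -0.46 had a standard error of 0.59 (edgeR adjusted p = 0.987). All 8 hormone genes had a fitted log2 fold change below 0, with a median of -0.24, while the median over all 15474 genes was 0.008, and 7388 of those were lower. The direction of Gcg turned with the acinar score as a covariate (log2 fold change 0.0154), and with a mouse left out it turned for Gcg without M151 (0.32) or M149 (0.0356), for Pyy without M151 (0.0497) and for Ins2 without M145 (0.00779), while other scalings of the libraries turned none of the 8. The 7 genes other than Ins1 each had an exact two-sided permutation p of at least 0.286 for log2 CPM.

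**Figure D2:**
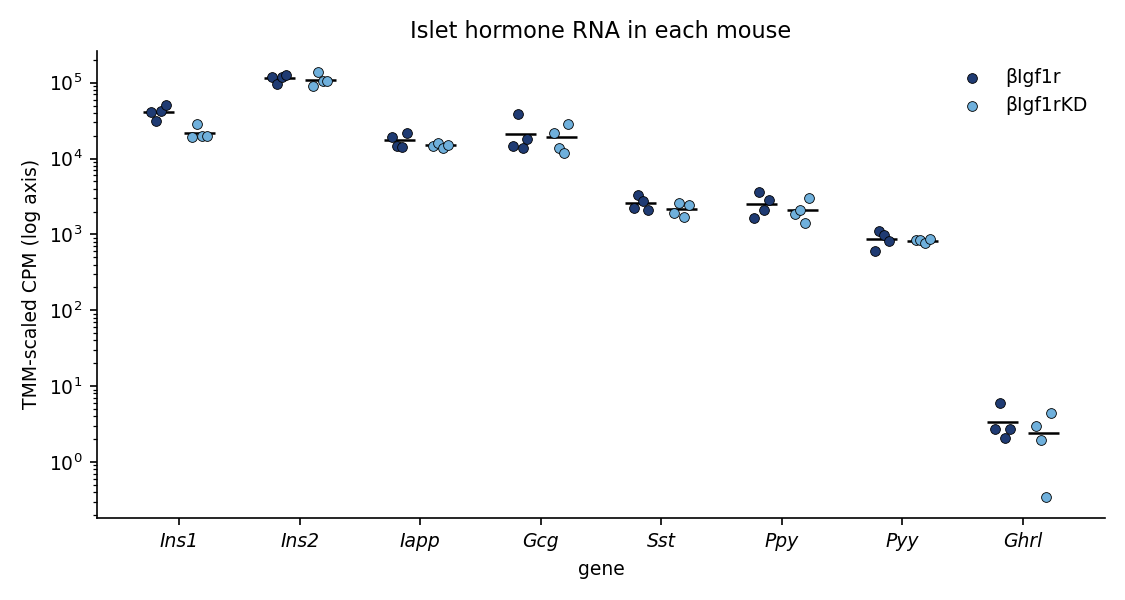
Each point is a mouse, plotted by gene on a logarithmic axis of TMM-scaled CPM, with a bar at the mean of each group of 4. For Ins1 the 4 βIgf1rKD points lie below the 4 βIgf1r points, and for the other 7 genes the groups overlap.

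Hormone genes differed in how far they spread among mice of a group. The coefficient of variation of CPM was 19.2% in βIgf1r and 21.1% in βIgf1rKD islets for Ins1, 11.2% and 18.7% for Ins2, and 54.9% and 40.9% for Gcg. The median over all genes was 13.4% and 13.8%. Ghrl, at 53.4% and 70.1%, and Ppy, at 33.5% and 31.2%, were also above it, and Sst stood at 20.8% and 19.8%. Iapp fell on either side of it, at 21.7% and 7.58%, as did Pyy at 25.03% and 5.65%. The fitted biological variation placed Gcg at the 91.6th and Ghrl at the 96.7th percentile of all genes, and the other hormone genes between the 64.0th and the 82.4th.

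The hormones of α, δ and PP cells tended to be high in the same mice. Over the 8 mice, as a description without a test, Pearson's r of log2 CPM was 0.82 for Gcg and Ppy, 0.50 for Gcg and Sst and 0.69 for Sst and Ppy. It was 0.62 for Ins1 and Ins2 and 0.67 for Ins1 and Iapp, and -0.56 for Ins2 and Gcg. All pairs share library, depth and islet purity. Gcg, Sst, Ppy, Pyy and Ghrl together took 9.68%, 24.5%, 9.91% and 10.6% of the hormone counts in the βIgf1r mice and 17.7%, 9.57%, 10.4% and 20% in the βIgf1rKD mice. M151, M145 and M150 had higher shares than the others and came from both groups. Their Xist levels were 401.9, 410.9 and 337.7 CPM, while M146, at 270.1 CPM, and the 4 mice below 100 CPM had the lower shares, and the part of Xist in this was not tested.

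To compare hormones within a library, where the total and the acinar counts cancel, the log2 ratio of each pair was taken, along with that of each hormone to the summed counts of 8 granule genes that endocrine cells share (Chga, Chgb, Scg2, Scg3, Cpe, Pcsk1n, Ptprn and Resp18). These 36 ratios, 28 pairs and 8 to the reference, were each tested by permuting the mice between the groups, two-sided and exactly, in all 70 ways. The groups did not overlap in 4 of them, each with an exact permutation p of 0.0286, the smallest possible, and an adjusted p of 0.257 over the 36. No ratio therefore passed after adjustment. Only 4 ratios at the smallest possible p could not have passed over 36, however large their differences, so this says nothing of their size. Ins1 was a term in 3 of the 4, which therefore are not separate observations. The lower ratio of Ins1 to Ins2 was already known from earlier results of these data, so its p does not test an unseen difference. Over all other tested genes, the ratio of Ins1 to the gene did not overlap for 55.1%.

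Ins1 relative to Ins2 showed little spread within the groups. The log2 ratio was -1.53, -1.64, -1.51 and -1.34 in M148, M151, M152 and M153 and -2.24, -2.28, -2.41 and -2.44 in M145, M146, M149 and M150. As a percent of the summed insulin counts, Ins1 took 25.7%, 24.3%, 26.0% and 28.4% in the βIgf1r mice and 17.5%, 17.1%, 15.8% and 15.6% in the βIgf1rKD mice. The group means of that percentage were 26.1% ± 1.71 and 16.5% ± 0.933 (SD, n = 4 each), and the difference of -0.84 in log2 ratio was several times the SD of 0.13 and 0.10 within groups. M146, the βIgf1rKD mouse with the most Ins1, lay within its group here.

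Relative to the endocrine reference, the groups did not overlap for Ins1 and overlapped for Ins2. The log2 ratio of Ins1 to the reference was 0.47, 0.22, 0.51 and 0.76 in the βIgf1r mice and -0.37, -0.18, -0.34 and -0.49 in the βIgf1rKD mice, a difference of -0.84, or 0.560 of the βIgf1r level. For Ins2 it was 2.001, 1.86, 2.02 and 2.10 in the βIgf1r mice and 1.87, 2.10, 2.07 and 1.94 in the βIgf1rKD mice. The means of Ins2 were 1.996 ± 0.10 and 1.99 ± 0.11 (SD, n = 4 each), with full overlap (exact permutation test, p = 0.971). Over all genes, 2.21% did not overlap in their ratio to this reference, and Ins1 was the only hormone gene among them. Summed over both insulin genes, the log2 ratio to the reference was 2.43 ± 0.13 in βIgf1r and 2.25 ± 0.10 in βIgf1rKD islets (SD, n = 4 each), with ranges of 2.26 to 2.58 and 2.15 to 2.37 that overlapped.

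**Figure D3:**
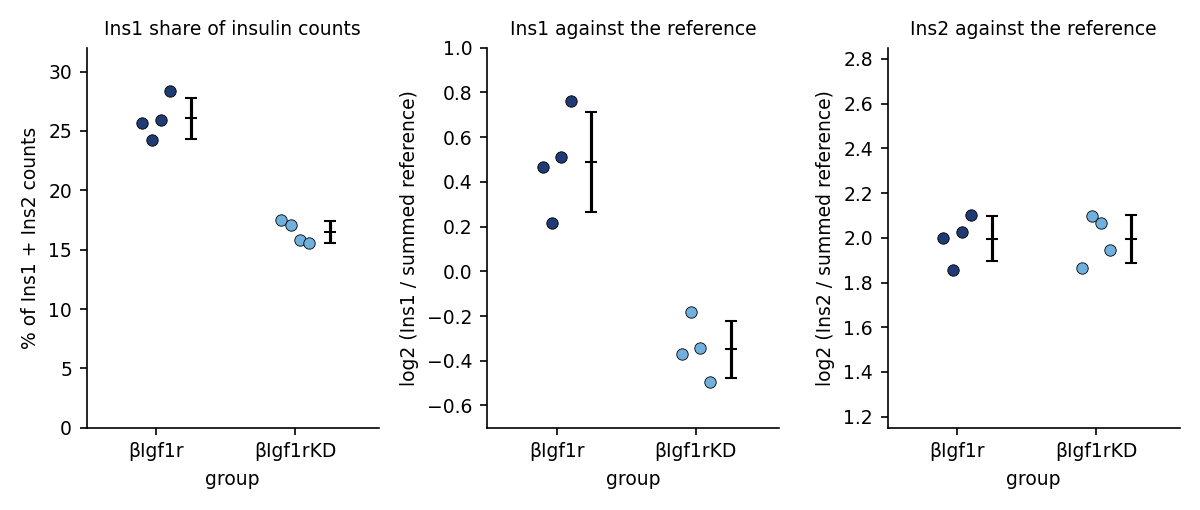
Points are mice and bars give the mean and SD (n = 4). Ins1 takes 24.3% to 28.4% of the insulin counts in βIgf1r and 15.6% to 17.5% in βIgf1rKD islets and lies lower against the endocrine reference, whereas the log2 ratio of Ins2 to the reference runs from 1.86 to 2.10 and from 1.87 to 2.10 on an axis of equal span.

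Because the groups did not overlap in Ins1 relative to Ins2, any subset of the mice had to give a lower value in βIgf1rKD, and only its size is informative here. Among mice with high Xist, the 3 βIgf1rKD mice lay below the 1 βIgf1r mouse, with a difference of -0.68, and among those with low Xist the 1 βIgf1rKD mouse lay below the 3 βIgf1r mice, with a difference of -0.95. For Ins1 relative to the reference the differences were -0.57 and -0.92. These splits leave 1 mouse on a side and were not tested.

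The ratio of Ins1 to Iapp also parted the groups. It was 1.07, 1.10, 1.59 and 1.21 in the βIgf1r mice and 0.40, 0.81, 0.52 and 0.37 in the βIgf1rKD mice on the log2 scale, a difference of -0.72, or 0.609 of the βIgf1r level. Ins1 to Pyy differed by -0.87 (exact permutation p = 0.0571), Ins1 to Gcg by -0.83 (p = 0.200), Ins1 to Sst by -0.67 (p = 0.114) and Ins1 to Ppy by -0.65 (p = 0.171), all with overlap. In these ratios M151, the βIgf1r mouse with the most Gcg, Sst, Ppy and Pyy, had the lowest value of its group. Without M151 the groups did not overlap in any of these 4 ratios, with differences of -1.13, -1.29, -0.92 and -0.96. The smallest p that the exact test over 35 assignments then allows is 0.0571. M151 was the only βIgf1r mouse with high Xist (401.9 CPM), so leaving it out also makes the groups less alike in Xist. Of the 36 ratios, 8 did not overlap without M151, against 4 or 5 without any other mouse. Ins1 to Ghrl differed by -0.11 (exact permutation p = 0.8286).

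The ratio of Gcg to Ghrl was the remaining one without overlap and rested on few counts. It was 12.4, 12.6, 12.7 and 12.7 in the βIgf1r mice and 12.8, 12.8, 14.98 and 12.7 in the βIgf1rKD mice on the log2 scale, with means of 12.59 ± 0.13 and 13.32 ± 1.11 (SD, n = 4 each). The highest value was that of M149, the library with 8 Ghrl counts. Without M149 the difference was 0.17 in place of 0.72. Of the 28 ratios without Ins1 it was the only one in which the groups did not overlap.

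**Figure D4:**
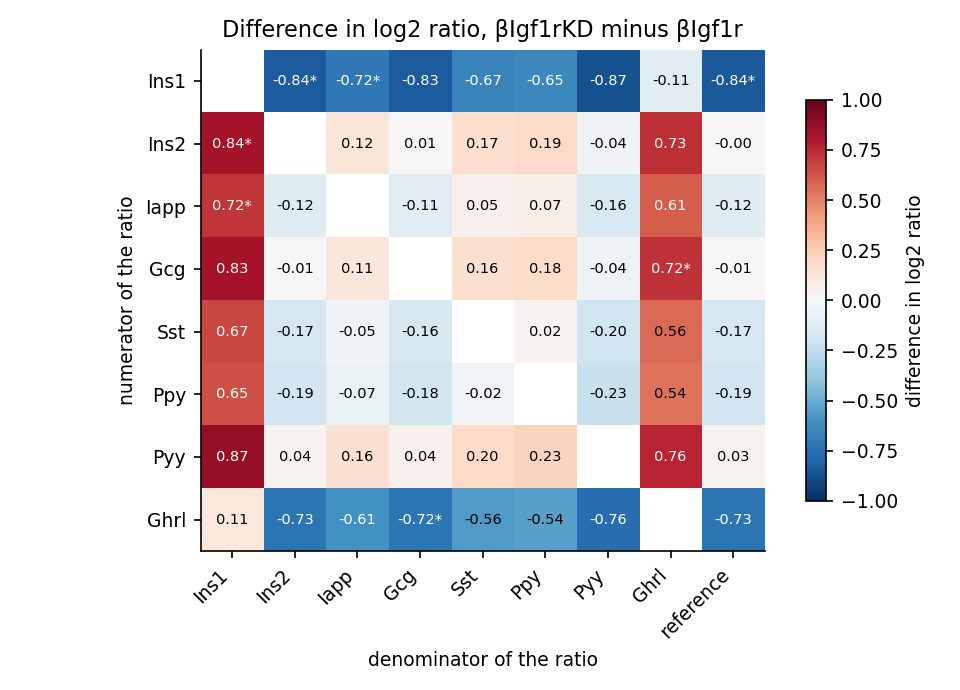
Each cell gives the difference in mean log2 ratio, βIgf1rKD minus βIgf1r, of the gene in the row to the gene or reference in the column, with red above and blue below 0 and an asterisk where the 4 mice of each group do not overlap. The row of Ins1 holds 3 asterisks and differences from -0.87 to -0.11, and the only asterisk without Ins1 is Gcg to Ghrl, at 0.72.

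How often such a ratio parts the groups was read from all genes. The log2 ratio of Ins1 to each of the other 15473 genes did not overlap between groups for 55.1% of them. Against that share, 2 of the 7 ratios of Ins1 to the other hormone genes are no more than over genes at large. The same percentage was 1.01% for Ins2, 1.13% for Iapp, 0.233% for Gcg, 2.44% for Sst, 0.31% for Ppy, 0.433% for Pyy and 0.297% for Ghrl. Ins1 by itself did not overlap between the groups, so its ratio to genes that differed little was likely to part them too. The 55.1% therefore restates the difference in Ins1 and adds no separate support. This share was not taken for the other genes without overlap in log2 CPM.

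**Figure D5:**
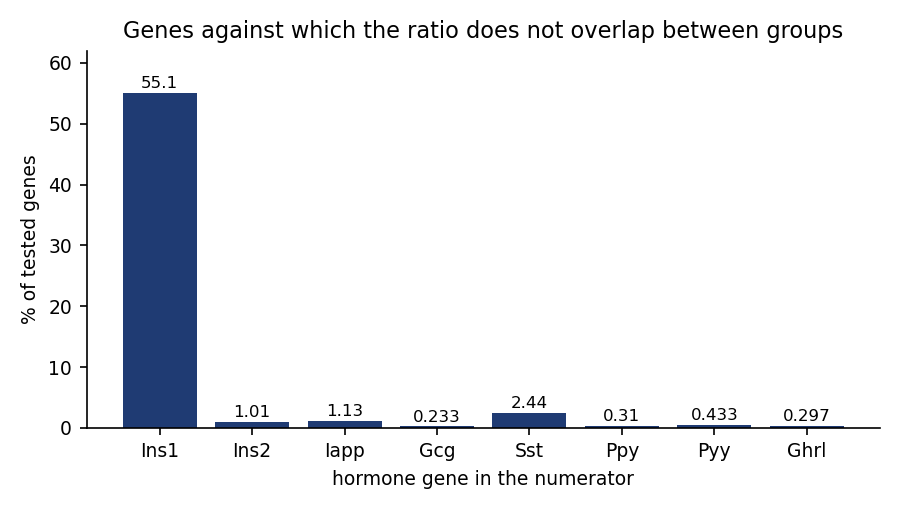
Bars give, for each hormone gene, the percent of all other tested genes for which the log2 ratio does not overlap between the 4 βIgf1r and 4 βIgf1rKD mice. Ins1 reaches 55.1%, and the other hormone genes lie between 0.233% and 2.44%.

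Genes that act around the hormones were counted against the 4.12% of all genes with an unadjusted p under 0.05 and the 0% with an adjusted one. Of 9 genes that cut and modify prohormones, 3 were higher and 6 lower in βIgf1rKD islets, with a median log2 fold change of -0.10 and 0 with an unadjusted p under 0.05. The most abundant were Pcsk2, a convertase that cuts proglucagon and proinsulin, at a log2 fold change of -0.10 (standard error 0.18), Cpe, the carboxypeptidase that trims the cut ends, at -0.27 (standard error 0.18), and Pcsk1n, an inhibitor of the convertase Pcsk1, at 0.12 (standard error 0.23). Of 19 transcription factors of islet cells, 7 were higher and 12 lower, with a median of -0.07 and again 0 with an unadjusted p under 0.05. Mafa, an activator of the insulin genes, was at 0.37 (standard error 0.30), Nkx6-1, a β-cell factor, at 0.21 (standard error 0.15), and Pax6, which activates several hormone genes, at -0.03 (standard error 0.10).

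Receptors of these hormones, receptors related to them, and cell type markers gave a like picture. Of 19 receptor genes 13 passed the filter on low counts, and 10 of these had a higher and 3 a lower mean in βIgf1rKD islets, with a median log2 fold change of 0.04 and 0 with an unadjusted p under 0.05. The most abundant were Glp1r, the receptor for glucagon-like peptide 1, at 0.13 (standard error 0.13), Insrr, a receptor kinase related to the insulin receptor, at 0.01 (standard error 0.14), and Sstr3, a somatostatin receptor, at 0.04 (standard error 0.14). The median was 0.08 over 9 β-cell markers other than hormones, 0.08 over 8 α-cell markers, -0.19 over 4 δ-cell markers and -0.07 over the 8 genes of the endocrine reference, each with 0 at an unadjusted p under 0.05. Among β-cell markers 5 were higher and 4 lower. Their log2 fold changes ran from -0.20 (standard error 0.13) for Slc30a8 to 0.37 (standard error 0.30) for Mafa. Slc2a2, the glucose transporter of β-cells, was at -0.13 (standard error 0.15). Among α-cell markers 5 were higher and 3 lower. They ran from -0.33 (standard error 0.27) for Ttr, which α-cells express strongly, to 0.46 (standard error 0.36) for Slc38a5. Of the δ-cell markers 1 was higher and 3 lower, and of the reference genes 3 were higher and 5 lower.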

How the data were processed

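Per the labels, reads were processed with fastp and kallisto against GRCm38. No versions, annotation release, k-mer length or strand setting is given in the sources used here. The authors deposited an estimated count per gene and mouse, which kallisto made from the reads of TruSeq stranded mRNA libraries, not scaled between mice. Of 53012 gene identifiers 51906 matched a symbol in GENCODE M21. Mice were grouped by the labels CTRL (βIgf1r) and KD (βIgf1rKD), and every column was matched to its mouse by number.

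Estimated counts were rounded, filtered with edgeR 4.0.16 defaults (10 counts in at least 4 mice after scaling, total of 15), which kept 15474 genes including all 8 hormone genes, and compared by the quasi-likelihood test with TMM factors and Benjamini-Hochberg adjustment over all genes tested in R 4.3.3. A threshold of 0.05 was used. The standard error of an edgeR log2 fold change was its absolute value divided by the square root of the F statistic. Log2 CPM used a prior count of 2. Log2 ratios used the unrounded counts plus 0.5 and an exact two-sided permutation test, adjusted over 36 ratios. Levels per length used the coding transcript of the lowest number. Coding sequences were aligned with Biopython 1.88. Totals of over 21634080 counts make the counting error small for every hormone gene but Ghrl.

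The members and lists were chosen with earlier results of these data known, among them the lower ratio of Ins1 to Ins2. Named genes were the 8 hormone genes, Igf1r, the genes of each pathway list (processing, transcription factors, receptors) with an unadjusted p under 0.05 or among the 3 highest in mean CPM, and for each hormone gene the 3 genes with the most similar log2 CPM. Reference and marker genes named besides these were chosen after their values were seen. Marker lists were written from general knowledge, and 110 of 111 listed symbols were found. Nothing in the labels says more of the replicates than a mouse number, and the methods describe separate animals.

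Alternatives were RLE factors, total counts, scaling without hormone and acinar genes, DESeq2 1.42.0, limma-voom (limma 3.58.1), no filter, 10 counts in every mouse, Xist or an acinar score as a covariate, an added count of 2, a mean log2 reference, union exon length and each mouse left out. The split by Xist and the coding length were added after seeing the data.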

Additional observations from a re-analysis of the deposited data

Results flagged for a closer look

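Of 88 sets of 4 mice examined, 4 held a mouse far from the others by Dixon's criterion, and chance gives about 4.4 such sets. For Ins1, M146 was the highest βIgf1rKD mouse at a log2 CPM of 14.80, with the others at 14.22 to 14.26. In the log2 ratio of Ins1 to Gcg, M151 was the lowest βIgf1r mouse at -0.30, with the others at 1.48 to 1.63. M151 was also the lowest βIgf1r mouse for Iapp to Ghrl, at 11.22 against 12.72 to 12.96. For Gcg to Ghrl, M149 was the highest βIgf1rKD mouse at 14.98 against 12.69 to 12.83, and that library held 8 Ghrl counts.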

How the results depend on the processing

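The log2 fold change of Ins1 stayed below 0, at -1.06 to -0.84 over 9 alternatives and -1.08 to -0.81 with each mouse left out. Since the groups did not overlap in Ins1, leaving out a mouse could hardly turn that sign, and only the size and p are informative. With a mouse left out, the unadjusted edgeR p of Ins1 ran from 0.0105 to 0.0622 and missed 0.05 without M153, M145 or M150. Ins1 to Ins2 stayed at -0.88 to -0.78 with each mouse left out. Genes called at an adjusted p under 0.05, 0 by edgeR with TMM, numbered 1 with total counts, 8 with DESeq2 and 1 with limma-voom, and total counts moved the median log2 fold change of all genes to -0.19. Genes at an unadjusted p under 0.05, 637 in the report, numbered 1098 with no filter (27738 genes tested), 1144 with Xist, 389 with the acinar score and 383 to 1114 with a mouse left out (383 without M148, 402 without M153, 960 without M146 and 1114 without M152). Ratios without overlap, 4 in the report, numbered 4 to 8 with a mouse left out, the most without M151. Sign changed for Gcg with the acinar score (0.0154) and with a mouse left out (-0.41 to 0.32), as it did with a mouse left out for Ins2 (-0.21 to 0.00779) and Pyy (-0.23 to 0.0497). It also changed for Ins2 to the reference with the mean log2 reference (0.0046) and with a mouse left out (-0.0475 to 0.0405), and with a mouse left out for the ratio to the reference of Gcg (-0.23 to 0.36), Ppy (-0.39 to 0.0288) and Pyy (-0.15 to 0.20) and for Ins1 to Ghrl (-0.81 to 0.37). With Xist as a covariate Ghrl was at -1.49 (edgeR unadjusted p = 0.00485, adjusted p = 0.659), Gcg at -0.47, Sst at -0.42 (unadjusted p = 0.0771), Ppy at -0.54 (unadjusted p = 0.0831), Pyy at -0.18 and Ins2 at -0.02, none of them called after adjustment. The causes of these shifts were not tested, beyond the fewer mice or other gene sets that the alternatives imply. Ghrl has no value where 10 counts were required in every mouse. Ghrl is the hormone gene whose depth limits what can be seen. No paired analysis was possible because the groups share no mouse number.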

Other observations

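Genes whose log2 CPM followed a hormone gene most closely over the 8 mice are given as a description, since mice share library depth and purity and the closest of 15474 genes are similar by selection. For Ins1 they were Fez1 (Pearson's r 0.989), Lmo1 (0.937) and Ubb (0.936), for Ins2 Arl2 (0.987), Gps1 (0.973) and Rtl8a (0.972), and for Iapp Frzb (0.990), Nt5c3 (0.965) and Spag6l (0.955). For Gcg they were Bbx (0.989), Mamld1 (0.987) and Gpx3 (0.982), for Sst Pars2 (0.971), Tulp4 (0.965) and Syn3 (0.962), and for Ppy Cdc42bpa (0.972), Tbc1d8b (0.966) and Sesn3 (0.954). For Pyy they were Lrp6 (0.950), Cep350 (0.930) and Igsf9b (0.930), and for Ghrl Paqr6 (0.984), Zfp85os (0.974) and Wfdc16 (0.973), all 3 of them at low levels.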
